A study of Mus musculus with 11 samples.

Results

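R-spondins are secreted proteins that raise the response of a cell to WNT ligands. The 6 genes described here encode the parts of that switch: the ligands Rspo2 and Rspo3, the receptors Lgr4 and Lgr5, and the membrane E3 ubiquitin ligases Rnf43 and Znrf3. They were taken by gene symbol from a table of 13720 genes, and all 6 passed the filter on low values that left 12996 genes for testing. The table holds 11 RNA-seq libraries, 5 wild type (WT) and 6 Meis1/Meis2 double knockout (KO), each made from both hindlimb buds of 1 mouse embryo at E10 (about 30 to 33 somites).

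In the KO embryos both Meis1 and Meis2, which encode homeodomain transcription factors, were disrupted. Meis2 was a conditional allele with a floxed exon. Meis1 was either a constitutive deletion or a conditional allele. The Cre was HoxB6CreER, which is active in the lateral plate mesoderm including the hindlimb-forming region once 4-hydroxy-tamoxifen is given. The libraries came in 2 sets. The Ovation set (NuGen Ovation v2 kit) holds WT S_252 and WT S_254, both female and from litter 1, and KO S_258, KO S_280 and KO S_284, all male and from litters 1, 3 and 4. Sex and genotype therefore cannot be told apart within that set. WT S_254 carries 1 mutant Meis1 allele and was labelled WT by phenotype. The NEBNext set (NEBNext Ultra II Directional kit) holds WT 1, WT 3 and WT 4, and KO 2, KO 3 and KO 4, labelled HoxB6CreER;Meis1Ko;Meis2KO.

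Values are CPM, reads scaled to the total of each library, which the authors had already normalized and corrected for batch. Depth per library is unknown, so no counting interval is given, and errors are the spread between embryos. The KO effect is a log2 fold change of CPM + 0.5, KO over WT, from limma with the library set as a term. A gene is called changed where its p, adjusted over the 12996 genes by Benjamini and Hochberg's method, is under 0.05. Of all genes tested, 2.09% were called, 137 lower and 135 higher in KO. The median log2 fold change of all genes was 0.0. On the first principal component (19.3% of the variance) all 5 WT libraries lay on one side of 0 and all 6 KO libraries on the other. Meis1 ranged from 106 to 150 CPM in WT against 110 to 158 CPM in KO, and Meis2 from 180 to 239 CPM and from 176 to 286 CPM. These sums over whole genes do not show the removal of an exon, so they check no label. The hindlimb mesenchyme markers Prrx1, Prrx2, Tbx4 and Pitx1 were at 15.5 CPM or more in every library.

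Frizzled receptors and their Lrp partners carry the WNT signal across the membrane. Rnf43 and Znrf3 tag Frizzled receptors for removal from the cell surface, which keeps WNT responses low. An R-spondin bridges a ligase and an Lgr receptor, the complex is cleared, and Frizzled receptors build up. In the mouse limb, Rspo2 is known from the apical ectodermal ridge, the thickened ectoderm at the bud rim that drives outgrowth, and loss of Rspo2 leaves limbs truncated, hindlimbs most of all. RSPO2 is also needed for limb formation in humans, and in mouse embryos this role does not require the Lgr receptors. Rnf43, Znrf3 and, in the gut, Lgr5 are themselves targets of WNT/beta-catenin signalling.

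The genes of each pair are relatives, so the coding sequences were compared to see whether reads of one could be counted for the other. The pairs shared 63.4% (Rspo2 and Rspo3), 62.6% (Lgr4 and Lgr5) and 64.0% (Rnf43 and Znrf3) of their aligned coding bases. The longest identical run was 14, 15 and 20 bases, far short of the 75-base single-end reads of the Ovation set. The windows of 75 coding bases around these runs follow for each gene because they are where the pairs are most alike, with the identical run in capitals and the coding strand written 5′ to 3′ (GENCODE M21 transcripts, GRCm38).
Rspo2 (chr15:43075937-43078144, minus strand, across exons 4 and 5): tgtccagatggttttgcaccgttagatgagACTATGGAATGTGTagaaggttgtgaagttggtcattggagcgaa
Rspo3 (chr10:29500107-29504632, minus strand, across exons 3 and 4): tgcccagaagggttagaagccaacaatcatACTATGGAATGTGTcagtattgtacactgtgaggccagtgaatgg
Lgr4 (chr2:110007266-110008154, plus strand, across exons 15 and 16): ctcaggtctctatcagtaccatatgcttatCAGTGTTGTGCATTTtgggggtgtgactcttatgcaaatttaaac
Lgr5 (chr10:115456724-115457761, minus strand, across exons 15 and 16): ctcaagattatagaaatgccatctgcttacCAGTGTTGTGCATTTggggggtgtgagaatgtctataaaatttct
Rnf43 (chr11:87731530-87731604, plus strand, exon 8): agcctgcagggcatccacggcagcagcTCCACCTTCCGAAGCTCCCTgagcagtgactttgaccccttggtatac
Znrf3 (chr11:5281727-5281801, minus strand, exon 8): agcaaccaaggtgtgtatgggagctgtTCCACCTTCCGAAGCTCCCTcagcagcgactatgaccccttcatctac
In each pair the flanks differ on both sides of the run, and no coding read of that length is identical in both genes. No 75-base window of the Rspo2, Lgr4, Rnf43 or Znrf3 transcript occurred in a transcript of another gene. In Lgr5, 34 of 4640 windows (0.733%) did. In Rspo3, 332 of 3011 windows lay in Gm48159, a gene on the opposite strand whose exons cover 404 bases of Rspo3 exon. Where strand was not kept, reads of the 2 genes from those bases cannot be told apart.

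The ligand Rspo2 (ENSMUSG00000051920, chromosome 15) was lower in KO hindlimbs and was the 1 member called, against 1.05% of all genes called lower. No member was called higher, against 1.04% of all genes. In the Ovation set Rspo2 stood at 26.9 CPM in WT S_252 and 29.3 CPM in WT S_254. The KO libraries of that set held 3.06 CPM (KO S_258), 10.8 CPM (KO S_280) and 5.41 CPM (KO S_284). Every KO library of the set lay under both WT libraries, as for 17.3% of genes. In the NEBNext set Rspo2 stood at 22.3, 12.2 and 25.3 CPM in WT 1, WT 3 and WT 4. The KO libraries there held 7.99, 4.00 and 8.12 CPM in KO 2, KO 3 and KO 4. WT 3 was the lowest WT library and still exceeded every KO library of either set. All 6 KO libraries were below all 5 WT libraries, which held for 1.67% of the genes tested. No member had all KO libraries above all WT libraries, as 1.82% of the genes did.

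Mean Rspo2 was 23.2 ± 6.66 CPM in WT (SD, n = 5) against 6.57 ± 2.93 CPM over the 6 KO libraries (SD). The log2 fold change was −1.81 (95% confidence interval −2.46 to −1.17, SE 0.299, adjusted p 0.00828), or 3.51 times more in WT (2.25 to 5.49). By p it stood at place 54 among all genes tested. Within the Ovation set the log2 fold change was −2.20 (adjusted p 0.0332, in a set where 1.15% of genes were called, 0.546% lower and 0.608% higher), and this call was lost without WT S_252 (adjusted p 0.268), without WT S_254 (0.191), without KO S_284 (0.149) or with no filter on low values (0.0539). Within the NEBNext set it was −1.50 and not called (adjusted p 0.134), where 0.0231% of genes were called. In that set Rspo2 was the 1 member with every KO library below every WT library (10.4% of genes), and no member had every KO library above (8.46% of genes). The difference of the effect between the sets was −0.70 (95% confidence interval −1.98 to 0.58, adjusted p 0.663). Across the 11 fits that each left out 1 library, the pooled value stayed between −2.01 and −1.62 and was called in all 11. The highest adjusted p of these fits, 0.0363, came without WT S_254, the embryo with the mutant Meis1 allele.

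**Figure D1:**
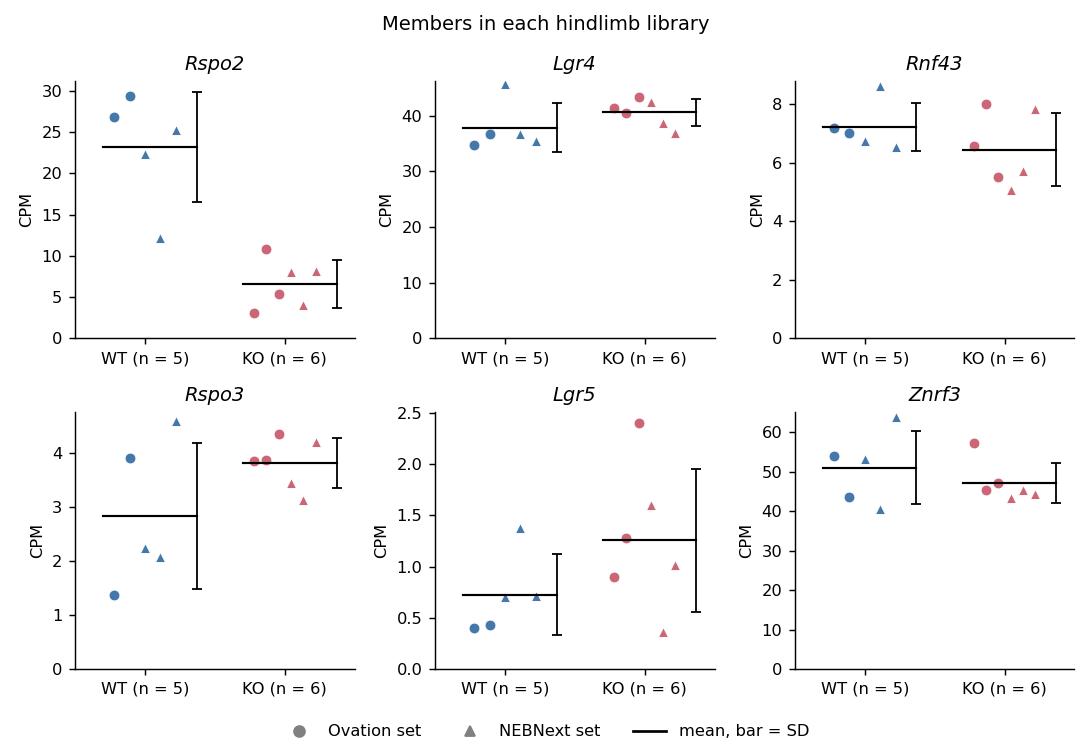
CPM of the 6 genes in each library, WT in blue and KO in red, circles for the Ovation set and triangles for the NEBNext set. Horizontal lines are group means and bars are SDs. Rspo2 is the 1 gene whose groups do not overlap, with WT at 12.2 to 29.3 CPM and KO at 3.06 to 10.8 CPM.

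Rspo3 (ENSMUSG00000019880, chromosome 10), the second ligand, which acts beside Rspo2 in mouse hindlimb formation, was low and did not pass the test. It measured 1.38 CPM in WT S_252, 3.90 in WT S_254, 2.25 in WT 1, 2.08 in WT 3 and 4.59 in WT 4. The KO values were closer together, at 3.85, 3.86 and 4.35 CPM in KO S_258, KO S_280 and KO S_284, and at 3.45, 3.13 and 4.21 CPM in KO 2, KO 3 and KO 4. Every KO library lay inside the WT range. The log2 fold change was 0.46 (95% confidence interval −0.09 to 1.00, adjusted p 0.437), so the interval runs from 0.941-fold to 2.001-fold of the WT level. It fell from 0.46 to 0.21 without WT S_252, the library with the least Rspo3. The value was 0.65 in the Ovation set (adjusted p 0.442), where it was 0.04 without WT S_252 and 1.26 without WT S_254, and 0.30 in the NEBNext set (adjusted p 0.714).

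The 2 ligands thus stood in a different ratio in the 2 genotypes. The log2 ratio of Rspo2 to Rspo3, each as CPM + 0.5, ran from 2.30 to 3.86 in WT (median 2.76) and from −0.29 to 1.38 in KO (median 0.59). The groups did not overlap in this ratio. Means were 3.31 and 0.46 in the Ovation set and 2.56 and 0.76 in the NEBNext set, WT before KO. With no pseudocount the means over all libraries were 3.10 in WT and 0.66 in KO. The ratio was chosen with the Rspo2 values known and is given without a test.

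The related ligands Rspo1 and Rspo4 were not called either. Rspo1 ranged from 2.77 to 10.8 CPM in WT against 4.195 to 18.0 CPM in KO (log2 fold change 0.38, adjusted p 0.685). Its direction was not the same in the sets. It was −0.39 in the Ovation set (95% confidence interval −1.17 to 0.39, adjusted p 0.627) and 1.00 in the NEBNext set (0.12 to 1.87, adjusted p 0.360). The difference between the sets was −1.39 (95% confidence interval −2.70 to −0.08, adjusted p 0.355). The pooled value thus averages 2 unlike values. Without KO 3, which held the 18.0 CPM, the pooled value was 0.09. Rspo4 ranged from 2.88 to 11.4 CPM in WT against 2.41 to 6.80 CPM in KO, with a log2 fold change of −0.72 (95% confidence interval −1.45 to 0.01, adjusted p 0.346). Within the Ovation set it was −1.09 (−1.92 to −0.27, adjusted p 0.175). There every KO library lay under both WT libraries, as for 17.3% of genes. Within the NEBNext set it was −0.42 (adjusted p 0.722), and the groups overlapped.

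Per length, as CPM per kb of exon, the 4 R-spondin genes summed to between 9.23 and 16.7 in WT and between 5.36 and 14.0 in KO. The summed levels of the 2 groups overlapped. Rspo2 made up 25.8 to 47.7% of the sum in WT and 5.61 to 23.7% in KO, with no overlap. Rspo1 held 12.6 to 37.9% in WT and 35.1 to 66.6% in KO, Rspo3 3.88 to 14.4% and 7.27 to 23.3%, and Rspo4 11.7 to 42.5% and 13.4 to 27.3%. A fall of one part raises the shares of the others, so these shares do not show that another R-spondin rose.

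**Figure D2:**
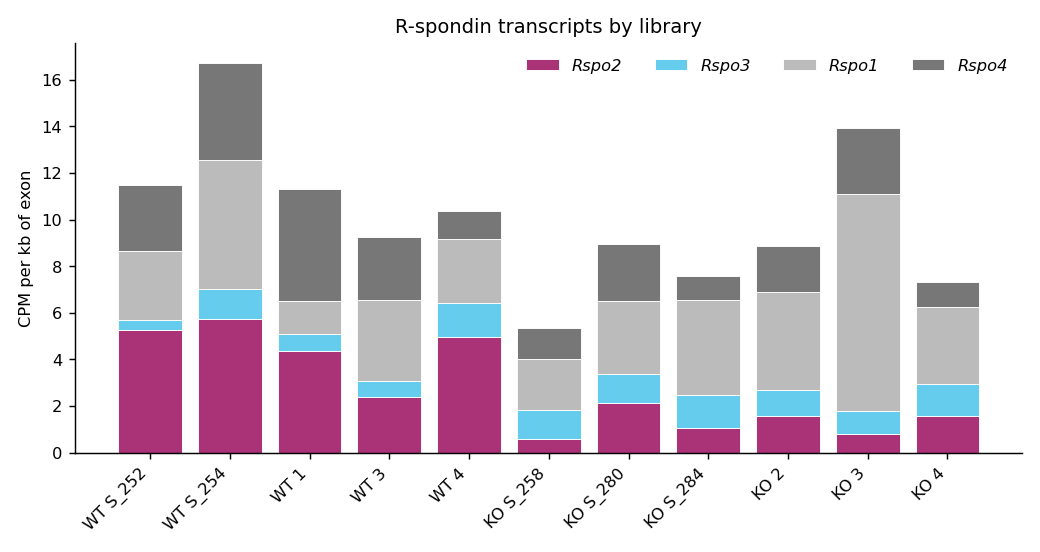
Levels of the 4 R-spondin genes in each library, in CPM per kb of exon, stacked by gene (Rspo2, Rspo3, Rspo1, Rspo4 from the bottom). The Rspo2 part spans 2.38 to 5.74 CPM per kb in WT and 0.599 to 2.12 in KO, and the tall KO 3 bar is mostly Rspo1 (66.6%).

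Lgr4 (ENSMUSG00000050199, chromosome 2), the widely expressed R-spondin receptor, was close to even over the libraries. In WT it measured 34.8 CPM in WT S_252, 36.7 in WT S_254, 45.6 in WT 1, 36.7 in WT 3 and 35.6 in WT 4. In KO it measured 41.5, 40.5 and 43.5 CPM in KO S_258, KO S_280 and KO S_284, and 42.5, 38.8 and 37.0 CPM in KO 2, KO 3 and KO 4. All KO libraries lay inside the WT range, whose top was set by WT 1. The log2 fold change was 0.11 (95% confidence interval −0.08 to 0.29, adjusted p 0.652), an interval that leaves out any change larger than 1.23-fold upward or 1.06-fold downward. It was 0.22 in the Ovation set, where every KO library was above both WT libraries, as for 17.9% of genes (adjusted p 0.422), and 0.01 in the NEBNext set (adjusted p 0.980).

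Lgr5 (ENSMUSG00000020140, chromosome 10), a receptor that marks stem cells in several adult epithelia, was near the floor of the table. It reached 1 CPM in 4 KO libraries and 1 WT library, so it passed the filter mainly through KO. WT values were 0.401 CPM in WT S_252, 0.429 in WT S_254, 0.704 in WT 1, 1.38 in WT 3 and 0.717 in WT 4. KO values were 0.894, 1.28 and 2.40 CPM in KO S_258, KO S_280 and KO S_284, and 1.60, 0.362 and 1.01 CPM in KO 2, KO 3 and KO 4. KO S_284 and KO 2 exceeded every WT library, and KO 3 was the lowest library of all. The log2 fold change was 0.48 (95% confidence interval −0.23 to 1.19, adjusted p 0.565). It was 1.08 in the Ovation set (95% confidence interval 0.11 to 2.04, adjusted p 0.245). Every KO library there was again above both WT libraries, as for 17.9% of genes, and this separation is not independent of the filter. In the NEBNext set the log2 fold change was −0.00 (−0.98 to 0.97, adjusted p 0.999). The difference between the sets was 1.08 (95% confidence interval −0.26 to 2.42, adjusted p 0.492). The third receptor of the family, Lgr6, ranged from 2.74 to 4.40 CPM in WT against 2.11 to 5.17 CPM in KO (log2 fold change −0.03, adjusted p 0.979).

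Rnf43 (ENSMUSG00000034177, chromosome 11), the scarcer ligase, measured 7.18 CPM in WT S_252, 7.01 in WT S_254, 6.73 in WT 1, 8.61 in WT 3 and 6.54 in WT 4. The KO values were 6.58, 7.999 and 5.50 CPM in KO S_258, KO S_280 and KO S_284, and 5.05, 5.72 and 7.82 CPM in KO 2, KO 3 and KO 4. The groups overlapped: 3 of the 6 KO libraries fell below all WT libraries and the other 3 lay among them. The log2 fold change was −0.17 (95% confidence interval −0.51 to 0.17, adjusted p 0.699). It was −0.09 in the Ovation set (adjusted p 0.900) and −0.23 in the NEBNext set (adjusted p 0.691).

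Znrf3 (ENSMUSG00000041961, chromosome 11), the other ligase, measured 54.0 CPM in WT S_252, 43.5 in WT S_254, 53.3 in WT 1, 40.6 in WT 3 and 64.0 in WT 4. The KO values were 57.4, 45.3 and 47.3 CPM in KO S_258, KO S_280 and KO S_284, and 43.5, 45.3 and 44.4 CPM in KO 2, KO 3 and KO 4. All KO libraries again lay inside the WT range, and within the NEBNext set the SD was 0.897 CPM in KO and 11.8 CPM in WT. The log2 fold change was −0.11 (95% confidence interval −0.36 to 0.15, adjusted p 0.760). It was 0.04 in the Ovation set (adjusted p 0.934) and −0.22 in the NEBNext set (adjusted p 0.582).

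**Figure D3:**
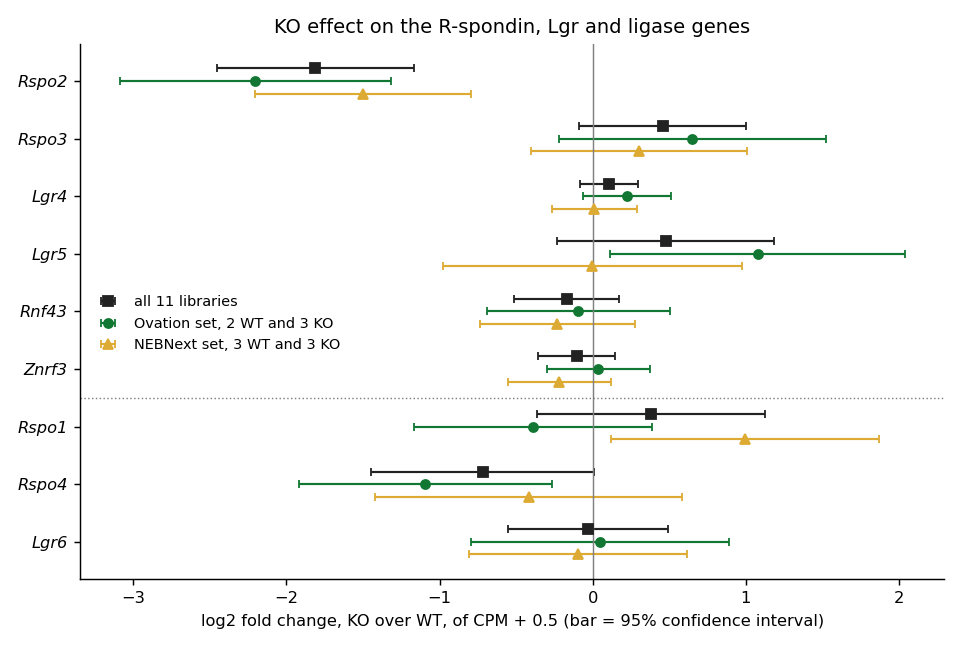
Log2 fold changes (KO over WT, CPM + 0.5) of the 6 genes and, under the dotted line, of 3 relatives, with 95% confidence intervals, for all libraries (squares), the Ovation set (circles) and the NEBNext set (triangles). The 3 Rspo2 intervals lie wholly below 0, around −1.81 pooled and −2.20 and −1.50 in the sets. The pooled intervals of the other 5 genes and of the 3 relatives cross 0. Within single sets, the intervals of Lgr5 (Ovation, 0.11 to 2.04), Rspo4 (Ovation, −1.92 to −0.27) and Rspo1 (NEBNext, 0.12 to 1.87) leave out 0, though none of these was called.

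Levels of different genes were set side by side per kb of exon. In WT the order was Znrf3 at 6.47 ± 1.18, Lgr4 at 6.44 ± 0.7504, Rspo2 at 4.54 ± 1.303, Rnf43 at 1.10 ± 0.124, Rspo3 at 0.919 ± 0.436 and Lgr5 at 0.0708 ± 0.0384 CPM per kb (SD, n = 5). Znrf3 and Lgr4 overlapped, as did Rnf43 and Rspo3, and Rspo2 overlapped Znrf3 but not Lgr4. In KO the order was Lgr4 at 6.90 ± 0.409, Znrf3 at 5.98 ± 0.653, Rspo2 at 1.28 ± 0.572, Rspo3 at 1.23 ± 0.147, Rnf43 at 0.983 ± 0.189 and Lgr5 at 0.123 ± 0.0678 CPM per kb (SD, n = 6). There Rspo2 had come down among Rspo3 and Rnf43, whose ranges it overlapped, while Lgr4 and Znrf3 stayed several-fold above. Lgr5 was the lowest in both groups. Annotated length matters here: over the longest transcript in place of all exons, Rspo2 stood at 6.95 in WT and 1.97 in KO, Rnf43 at 1.67 and 1.495, and Lgr5 at 0.152 and 0.262 CPM per kb. Rnf43 then came before Rspo3 in KO, and in WT Rspo2 (3.65 to 8.78) overlapped Lgr4 (6.88 to 9.02) as well as Znrf3. Per kb, Znrf3 exceeded Rnf43 by 3.92 to 8.13 times in WT and by 4.71 to 7.25 times in KO.

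The genes whose log2(CPM + 0.5) followed Rspo2 most closely over the 11 libraries were Cstf2 (Pearson r 0.953), Dmrta1 (0.949), Tspan6 (0.947), Dusp6 (0.946) and Wdr35 (0.946). Dusp6 encodes a phosphatase that is induced by FGF signalling and dampens it. Dusp6 (log2 fold change −1.11, adjusted p 0.00592) and Dmrta1 (−1.40, adjusted p 0.0311) were called lower, and the other 3 were not called. After group and set means were taken out, r was between 0.797 and 0.932. The closest genes to the other members were Tns1 for Rspo3 (r 0.928), Arhgap42 for Lgr4 (0.900), Ankrd24 for Lgr5 (0.914), Ifrd1 for Rnf43 (0.892) and Glipr1 for Znrf3 (0.966). These are the top of 12996 candidates over 11 points that share genotype, library set and batch correction, and they are a description.

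Around the switch, none of the genes that the ligases and R-spondins act on was called. Of 11 WNT receptor genes tested (Frizzled receptors, Lrp5 and Lrp6), 4 lay above 0 and 7 below, with a median log2 fold change of −0.06. Fzd1 stood at 50.7 to 62.3 CPM in WT against 38.7 to 53.6 CPM in KO (log2 fold change −0.39, adjusted p 0.0637), and was called only without KO S_280 among the fits that left out 1 library (adjusted p 0.0292), and with no library set term (adjusted p 0.0407). Fzd10 stood at 24.6 to 35.3 CPM and at 18.4 to 25.7 CPM (−0.40, adjusted p 0.125). Fzd4, named here after its value was seen, lay on the other side of 0 at a similar size (0.40, adjusted p 0.160). Of 13 WNT ligand and secretion genes, 0 were called at a median of −0.02. Wnt5a, a ligand of the non-canonical branch, had −0.27 (adjusted p 0.304) and Wls, which escorts WNT proteins to the surface, −0.20 (adjusted p 0.458). In these 2 lists limma's unadjusted p was under 0.05 for 3 and 1 genes, against 14.7% of all genes tested.

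Inside the cell, 0 of 9 genes for Dishevelled proteins and the beta-catenin destruction complex were called (0 with an unadjusted p under 0.05), with a median of 0.03. The kinase genes Gsk3a (0.19, adjusted p 0.351) and Csnk1a1 (−0.11, adjusted p 0.532) came nearest. The heparan sulfate core proteins, syndecans and glypicans that can hold R-spondins at the surface, had 0 of 10 called (1 with an unadjusted p under 0.05) and a median of −0.06. Sdc3 had −0.42 (adjusted p 0.241) and Gpc4 0.28 (adjusted p 0.425).

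The WNT response and nuclear factor list held more calls, 4 lower and 1 higher of 17, against 1.05% and 1.04% of all genes. Its median was −0.32 beside 0.0 for all genes, with 5 genes above 0 and 12 below. Some genes not called are named here after their values were seen. Axin2 (0.30, adjusted p 0.162) and Tcf7l1 (0.38, adjusted p 0.179) lay above 0. Lef1 (−0.45, adjusted p 0.0918) and Notum (−1.17, adjusted p 0.102) lay below. Kremen1, a receptor for the Dickkopf inhibitors, went from 30.4 to 36.3 CPM in WT to 15.5 to 22.1 CPM in KO (log2 fold change −0.83, adjusted p 0.00275). Tcf7, a nuclear partner of beta-catenin, had −0.81 (adjusted p 0.0122), and the inhibitor Apcdd1 −0.63 (adjusted p 0.0170). The secreted inhibitor Dkk1 had −1.30 (adjusted p 0.0472). Tcf7l2, named here after its value was seen, was the 1 called higher (0.49, adjusted p 0.0475). Tcf7 and Tcf7l2 both encode nuclear partners of beta-catenin and went in opposite directions, and Kremen1, Apcdd1 and Dkk1 act in the inhibition of WNT signalling. Kremen1 and Tcf7 were called in all 11 fits that left out 1 library. The Apcdd1 call was lost without WT S_254 (adjusted p 0.0653) or KO 2 (0.0548), and the Dkk1 call in 9 of the 11 fits, all but those without WT 3 or KO 4 (adjusted p 0.144 without WT S_254). The Tcf7l2 call held in 2 of the 11 (adjusted p 0.149 without WT S_252). Over 12 alternatives to the pooled fit, Kremen1 was called in 12, Tcf7 and Apcdd1 in 11 each, Tcf7l2 in 8 and Dkk1 in 7. With no filter or no mean-variance trend neither Tcf7l2 nor Dkk1 was called. With litter 1 alone in the Ovation set, adjusted p was 0.0730 for Tcf7, 0.0817 for Apcdd1, 0.134 for Dkk1, 0.0968 for Tcf7l2 and 0.0678 for Sfrp2. Of 9 secreted WNT inhibitors, Sfrp2 was called higher (19.3 to 27.9 CPM in WT, 31.2 to 38.4 CPM in KO, log2 fold change 0.57, adjusted p 0.0112) and Dkk1 lower. The median of these inhibitors was 0.23, and its sign was not the same by set (0.37 in Ovation, −0.09 in NEBNext).

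**Figure D4:**
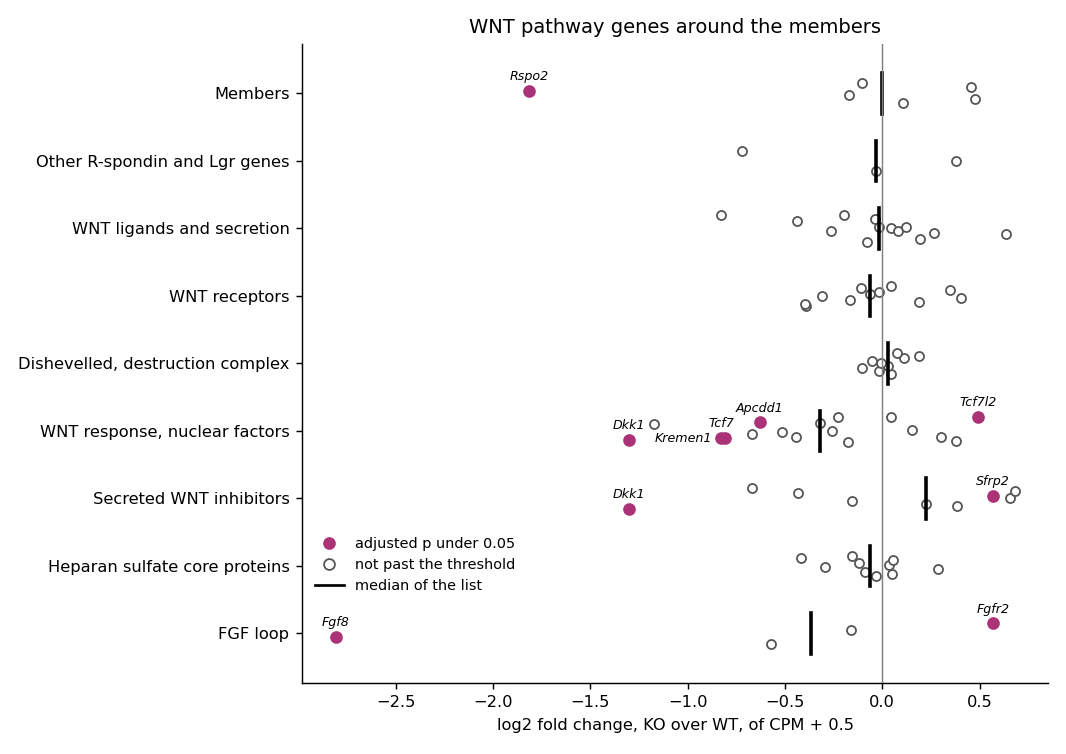
Log2 fold changes (KO over WT, CPM + 0.5) of the tested genes in each WNT pathway list, 1 point a gene, filled where adjusted p was under 0.05, with vertical lines at the list medians. Rspo2 (−1.81) is the 1 filled point among the 6 members, the receptor list is empty of calls, and the filled points of the response list run from Dkk1 (−1.30) to Tcf7l2 (0.49).

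Because Rspo2 is known from the apical ridge, the markers of that tissue were read beside it. In bulk buds, fewer cells of a type and less RNA per cell cannot be told apart. Of 16 ridge markers 12 were measured. Of these, 5 were called lower (En1, Fgf8, Dlx5, Sp6 and Sp8), against 1.05% of all genes, and 0 higher, against 1.04%. Their median log2 fold change was −0.64. Their summed level was 196 to 231 CPM in WT against 124 to 180 CPM in KO. Every KO library thus lay below every WT library. This held for 1.67% of single genes, a share that is no baseline for a sum over a list chosen with earlier results known. In WT, Fgf8, En1 and Dlx5 each stood at 14.1 CPM or less, so other genes of the list made up most of the sum. Fgf8, the main growth signal of the ridge, ranged from 2.45 to 14.1 CPM in WT against 0.185 to 2.59 CPM in KO (log2 fold change −2.81, adjusted p 0.00635). In 4 KO libraries Fgf8 lay under the 0.5 CPM that was added before taking logs, so the size of its fold change rests on that value: it was −3.52 with 0.1 CPM and −1.80 with 2 CPM, and was called with both. En1 was also low, at 2.15 to 3.59 CPM in WT against 0.354 to 1.13 CPM in KO. Its log2 fold change ran from −2.05 to −0.87 over 11 alternatives, and it was called in all 11. En1 and Fgf8 each reached 1 CPM in 5 WT libraries, and in 1 and 2 KO libraries. Both thus passed the filter mainly through WT. Fgf4, Fgf9 and Fgf17 were not analysed here. The Dlx5 call was lost without WT S_254 (adjusted p 0.0660) or KO 2 (0.0635), and the Sp6 call without WT S_252 (0.0733) or KO 2 (0.0580) or with litter 1 alone in the Ovation set (0.0874). Sp8 (log2 fold change −0.85, adjusted p 0.0369) was called in 3 of the 11 fits without 1 library (adjusted p 0.122 without WT S_252), and not with litter 1 alone (0.0730).

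Of 18 markers of the general surface ectoderm 1 was called lower, Tfap2c (log2 fold change −1.50, adjusted p 0.00828), and 0 higher, with a median of −0.10. Epcam, Cdh1, Krt8 and Krt18 were present in every library at 6.15 CPM or more and were not called. The summed level was 283 to 388 CPM in WT against 231 to 388 CPM in KO, and these ranges overlapped. Per 100 CPM of these markers, Rspo2 stood at 3.14 to 9.03 CPM in WT against 0.790 to 4.70 CPM in KO, an overlap made by WT 3, which was the WT library with the most ectoderm marker RNA and the least Rspo2.

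Rspo2 and Fgf8 did not keep a fixed ratio. WT 3 had the most Fgf8 of the WT libraries (14.1 CPM) and the least Rspo2 (12.2 CPM), and WT 4 had the least Fgf8 (2.45 CPM) with 25.3 CPM of Rspo2. The log2 ratio of Rspo2 to Fgf8, each as CPM + 0.5, ran from −0.21 to 3.13 in WT and from 1.87 to 3.63 in KO. With no pseudocount it ran from −0.21 to 3.36 in WT and from 2.06 to 5.43 in KO, so the groups overlapped both ways. Fgf8 is held in place by a loop with the mesenchyme, in which mesenchymal Fgf10 acts through ectodermal Fgfr2. Fgf10 had a log2 fold change of −0.57 (adjusted p 0.0828), and Fgfr2, at 64.6 to 87.8 CPM in WT against 96.5 to 151 CPM in KO, was called higher (0.57, adjusted p 0.0274), although this call held in 4 of the 11 fits without 1 library (adjusted p 0.0847 without KO 2) and not with no mean-variance trend (0.0820). The Fgfr2 value sums the whole gene, with 27 annotated transcripts, over all cells of the bud. It therefore does not measure the ectodermal receptor alone. Whether the share of ridge cells accounts for the Rspo2 difference was not tested.

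**Figure D5:**
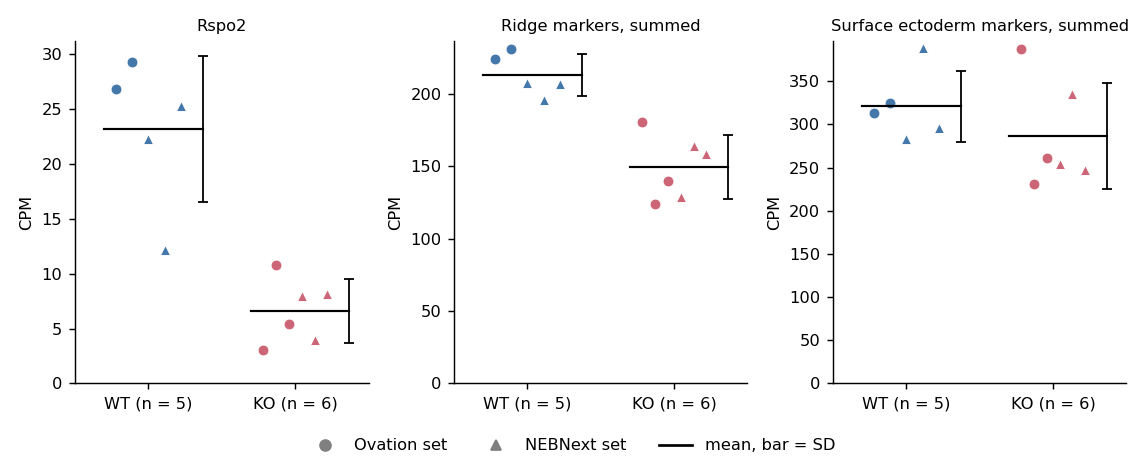
Rspo2, the summed ridge markers and the summed surface ectoderm markers in each library, in CPM, WT in blue and KO in red, circles for the Ovation set and triangles for the NEBNext set. Lines are means and bars SDs. Rspo2 and the ridge sum (196 to 231 against 124 to 180 CPM) separate the groups, and the ectoderm sum does not. The lists were chosen with earlier results of these data known.

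Other cell types were read the same way. Endothelial markers (10 tested) held 0 calls (2 with an unadjusted p under 0.05 by limma), and Pecam1, Cdh5, Kdr and Tie1 stood between 6.51 and 82.8 CPM over all libraries. Erythroid markers (8 tested) also held 0 calls (0 with an unadjusted p under 0.05), with the globin genes Hbb-bh1, Hbb-y, Hba-x and Hba-a1 between 74.5 and 6203 CPM. The erythroid sum spanned 1786 to 11760 CPM in WT against 1355 to 13090 CPM in KO. Blood RNA thus varied several-fold within both genotypes.

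Intermediate mesoderm and coelomic epithelium lie beside the hindlimb field. Of 7 tested markers of these tissues, 2 were called higher, against 1.04% of all genes: Gata3 (0.95, adjusted p 0.0224) and Tcf21 (1.26, adjusted p 0.0430). These calls held in 7 and 2 of the 11 fits without 1 library. Keeping litter 1 as the sole Ovation litter, adjusted p was 0.0926 for Gata3 and 0.164 for Tcf21. The list median was 1.00, which split into 1.31 (Ovation) and 0.14 (NEBNext). Pax2 had 2.45 in the Ovation set, where it was called (adjusted p 0.0149), and −0.12 in the NEBNext set (adjusted p 0.954). Its Ovation values were 0.185 and 0.198 CPM in WT against 2.91 to 3.59 CPM in KO. Both WT values lay under the 0.5 CPM added before taking logs, so the size of 2.45 rests on that value. Pax2 reached 1 CPM in 2 WT and 5 KO libraries, so it passed the filter mainly through KO. Osr1 had 2.07 (adjusted p 0.0518) and 0.14 (adjusted p 0.946), and Wt1 0.80 (adjusted p 0.215) and −0.70 (adjusted p 0.516). The difference between the sets was 2.57 for Pax2 (adjusted p 0.240) and 1.93 for Osr1 (adjusted p 0.433). Pax8, at 1.68 CPM or less, did not pass the filter on low values. The summed level of the list was 14.4 to 31.9 CPM in WT against 18.6 to 46.9 CPM in KO.

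Of 4 somite and sclerotome markers 0 were called (0 with an unadjusted p under 0.05), with medians of −0.15 over all libraries, 1.05 for Ovation and −0.92 for NEBNext. Meox1 stood at 8.18 to 50.5 CPM over all libraries, Pax1 at 0.287 to 7.60 CPM and Pax9 at 0.192 to 3.94 CPM. Of 3 tested muscle precursor markers 0 were called (1 with an unadjusted p under 0.05). Among them Pax3 ranged from 2.84 to 15.9 CPM in WT against 0.290 to 9.10 CPM in KO (−1.39, adjusted p 0.319), and Met, which precursors need to migrate into the bud, had 0.06 (adjusted p 0.861). Pax7, at 2.11 CPM or less, did not pass the filter. Neural markers had 0 of 3 called (2 with an unadjusted p under 0.05) and a median of −0.93. Pou4f1 had −1.14 (adjusted p 0.0529) and Tubb3 −0.93 (adjusted p 0.0769). Each reached 1 CPM in 5 WT and 0 KO libraries, so they passed the filter only through WT. For both genes the highest KO library was under the lowest WT library, as for 1.67% of genes tested. That separation is not independent of the filter. Both genes were called under 4 of the alternatives: no filter, quantile normalization, no library set term and no mean-variance trend (adjusted p 0.0306 to 0.0429 for Pou4f1 and 0.0277 to 0.0475 for Tubb3). Their levels were low, at 3.20 CPM or less for Pou4f1 and 1.71 CPM or less for Tubb3. Elavl4, the third, had −0.10 (adjusted p 0.900). Hindlimb mesenchyme markers had 1 of 10 called lower, against 1.05% of all genes, and 0 higher. The 1 called was Msx1 (−0.69, adjusted p 0.00275), which ridge and mesenchyme both express. Limma's unadjusted p was under 0.05 for 5 of the 10, against 14.7% of all genes tested, with 6 genes above 0 and 4 below. Among those not called, named after their values were seen, were Lhx9 (−1.08, adjusted p 0.0879) and Prrx1 (0.48, adjusted p 0.0927). What part these tissues had in the Rspo2 difference was not tested.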

How the data were processed

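RNA-seq was made from both hindlimb buds of single E10 embryos, 5 WT and 6 KO. The deposited values are CPM: the authors took RSEM estimated counts on GRCm38, scaled them by TMM, removed batch with ComBat and kept genes of at least 1 CPM in 4 samples. Reads were trimmed with cutadapt, and RSEM 1.2.3 and cutadapt 1.3 are named in the submitters' processing notes for the Ovation set. Counts could not be recovered, so depth is unknown. Batch correction was done before these tests and can make the spread look too small, and whether it took account of genotype is not given in the sources used here.

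CPM were tested as log2(CPM + 0.5) by limma (version 3.58.1, in R 4.3.3). The model held genotype plus library set, with a mean-variance trend, two-sided tests and Benjamini-Hochberg adjustment over the genes that reached 1 CPM in 4 or more libraries. Fits within each set and the interaction of genotype and set used the same settings. P-values set the genotype difference against the spread between embryos that was left after batch correction. Limma draws that spread, gene by gene, toward the trend over all genes. The model held no term for sex or litter. Exon lengths and sequences came from GENCODE M21. The 6 members and all lists were chosen with earlier results of these data known. From each pathway list, up to 4 called genes are named by smallest p, or the 2 with the smallest p where none was called. From the cell type lists, measured defining markers (the first 4 of each list) and called genes are named, and for each member the genes with the highest Pearson r. Alternatives were other pseudocounts, filters, scalings, variance settings, a replicate block, litter 1 alone, and leaving out each library.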

Additional observations from a re-analysis of the deposited data

Results flagged for a closer look

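In 44 groups of 4 to 10 values (members, relatives and ratios, by genotype), 5 held a library far from the others by Dixon's test at the 95% level, which flags about 1 group in 20 by chance. Lgr4 stood at 45.65 CPM in WT 1, above the other WT libraries. Znrf3 stood at 57.42 CPM in KO S_258, above the other KO libraries. Rspo1 stood at 18.01 CPM in KO 3, above the other KO libraries. Rspo2 per 100 CPM of surface ectoderm markers was 3.136 in WT 3, below the other WT libraries. The ratio of Lgr4 to Lgr5 in CPM per kb was 186.9 in KO 3, the library with the least Lgr5.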

How the results depend on the processing

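Rspo2 kept its direction and its call in 12 of 12 alternatives to the pooled fit (log2 fold change −1.96 to −1.59, adjusted p up to 0.0307 with no mean-variance trend) and in 11 of 11 fits without 1 library. The other 5 members stayed uncalled in all of these, and a filter of 5 CPM left out Rspo3 and Lgr5. The number of genes called was 102 in place of 272 with litter 1 alone in the Ovation set, and 106 to 337 when 1 library was left out. It was 22 to 389 within the Ovation set (150 with all libraries) and 2 to 49 within the NEBNext set (3 with all libraries). WT and KO NEBNext libraries share the numbers 3 and 4, with correlations of their deviations of 0.201 and −0.037. The other WT and KO pairs of that set ran from −0.16 to 0.215. The labels give no litter for the NEBNext set, so whether same-numbered libraries were paired is unknown. With these numbers as a replicate block, 13 genes were called within the NEBNext set and 290 in all. Rspo2 within the NEBNext set then reached an adjusted p of 0.0451, against 0.134 without the block. Over the longest transcript, levels moved to 6.945 and 1.968 (Rspo2, WT and KO), 7.486 and 8.027 (Lgr4), 0.1515 and 0.2625 (Lgr5), 1.674 and 1.495 (Rnf43), and 8.095 and 7.481 CPM per kb (Znrf3).

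Values near 0 changed sign. The Lgr5 value within the NEBNext set was 0.0112 with a pseudocount of 1, and that of Meis2 −0.061 with litter 1 alone. With 1 library left out, the ranges crossed 0 within the NEBNext set for Lgr4 (−0.0552 to 0.1228) and Lgr5 (−0.2947 to 0.3465), within the Ovation set for Rnf43 (−0.2211 to 0.0301) and Znrf3 (−0.1179 to 0.1906), and over both sets for Alas2 (−0.0399 to 0.6889), Lgr6 (−0.1607 to 0.0888) and Meis2 (−0.0249 to 0.1504). The causes were not tested. With 2 to 3 libraries a group within each set, and with depth unknown, small changes of low genes such as Lgr5 and Rspo3 cannot be told from the spread.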
